A study of Mus musculus with 2 samples.

Results

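Leukocyte microRNAs were examined in whole lung of newborn mice: Mir223, Mir150, Mir155, Mir146, Mir146b, Mir342 and the row of Mir142b. These are 7 of the 1973 gene rows of the microRNA-seq tables. They were chosen by name, as microRNAs known from white blood cells, and by no cut on their levels here. Earlier results of these data were known when they were chosen. For the first 6 genes, reads on the gene's own strand were counted. The Mir142b row was read on its opposite strand, where it overlaps Mir142, a gene with no row of its own in the tables used here; these reads are called the Mir142 locus. The study holds 1 group of 2 libraries from mice of the B6NCrl strain at postnatal day 0, with no second tissue, age or treatment, and the sex was not collected. Replicate 2 came from the 2 lungs of pup 3 and replicate 1 from the 2 lungs of pup 1, both of pregnancy 1, although the labels give 1 donor record for both. Levels are reads per 1000000 own-strand reads on microRNA genes (CPM), out of 5426081 such reads in replicate 2 and 4532902 in replicate 1.

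MicroRNAs are short RNAs cut from hairpin precursors. Bound to an Argonaute protein, they repress messenger RNAs that pair with their seed, bases 2 to 8 of the mature strand. A few of them are made mainly in blood cells. miR-142 is found across nearly all white blood cell types, miR-223 is a microRNA of granulocytes and other myeloid cells, and miR-150 of mature lymphocytes, where it represses Myb. miR-155 and miR-146a rise when immune cells are activated; miR-146a is induced by NF-kB and limits that pathway by repressing Traf6 and Irak1. In lung, such microRNAs are usually read as signs of resident and circulating leukocytes, but a bulk library cannot tell fewer cells of a type from less of the RNA per cell.

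The mature sequences show which members can be told apart by a read. All 8 symbols looked up, the 7 members and Mir142, had a mature sequence in RefSeq's table for GRCm38.p6. For Mir150 this was miR-150-3p only, so no arm of Mir150 is printed below. The arms below are those usually taken as the main products, with miR-142b for comparison; capitals mark the seed, and each runs 5′ to 3′. The tables count both arms of a precursor together, so the level of an arm alone was not measured.
mmu-miR-142a-5p: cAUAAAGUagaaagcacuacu
mmu-miR-142a-3p: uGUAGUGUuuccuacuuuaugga
mmu-miR-142b: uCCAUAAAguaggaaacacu
mmu-miR-223-3p: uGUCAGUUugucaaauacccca
mmu-miR-342-3p: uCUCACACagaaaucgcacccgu
mmu-miR-146a-5p: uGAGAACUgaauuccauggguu
mmu-miR-146b-5p: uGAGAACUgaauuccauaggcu
mmu-miR-155-5p: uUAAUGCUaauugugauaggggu

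miR-146a-5p and miR-146b-5p share the seed GAGAACU, and no other mature sequence in the table has it. The other seeds printed here were each held by 1 gene in the table. From miR-146a-5p to miR-146b-5p there are 2 substitutions, G18A and U21C, counted from 1 at the 5′ end. The longest stretch they share is 17 of 22 bases, so a read that reaches past it can be placed. Among the other arms printed, the longest stretch found in a microRNA gene at another locus of GENCODE M21, on either strand, ran from 9 bases for miR-155-5p to 13 bases for miR-142a-5p. Mir142 and Mir142b overlap each other and were not searched against one another. The mature strands are 20 to 23 bases long, and CPM was compared between genes with no scaling by length.

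The Mir142 locus carried reads of 1 strand only. The Mir142b row, on the minus strand at chr11:87756841-87756955 (GRCm38, the assembly of mm10), held 9651 opposite-strand reads and 0 own-strand reads in replicate 2, and 7040 and 0 in replicate 1. Opposite-strand reads therefore made up 100% of the row in each library, with a lower exact Clopper-Pearson 95% limit of 99.9618% in replicate 2 and 99.9476% in replicate 1. With the own strand set at a floor of 3 reads, the opposite strand was 3217-fold higher in replicate 2 and 2347-fold in replicate 1. That floor equals 0.553 CPM for Mir142b itself in replicate 2, and 0.662 CPM in replicate 1. It is a chosen setting and not an upper limit. These limits and intervals hold for counting error alone, because PCR can copy 1 molecule into several reads.

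The opposite strand of that row is the strand of Mir142, at chr11:87756864-87756927, in an intron of the long noncoding host gene Mir142hg. The precursors are printed because they are each other's complement: the whole Mir142 precursor lies at positions 24 to 87 of the reverse complement of the Mir142b precursor. miR-142b is the exact reverse complement of positions 4 to 23 of miR-142a-3p. Capitals mark the mature strands.
Mir142, 64 bases, plus strand: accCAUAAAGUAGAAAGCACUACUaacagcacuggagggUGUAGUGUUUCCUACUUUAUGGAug
Mir142b, 115 bases, minus strand: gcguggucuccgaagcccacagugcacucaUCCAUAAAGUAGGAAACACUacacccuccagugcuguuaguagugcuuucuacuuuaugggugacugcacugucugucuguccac

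Because the row gives a total, where within its 115 bases the plus-strand reads lie was not measured. Reads of Mir142hg RNA inside that window would be counted with those of Mir142.

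**Figure D1:**
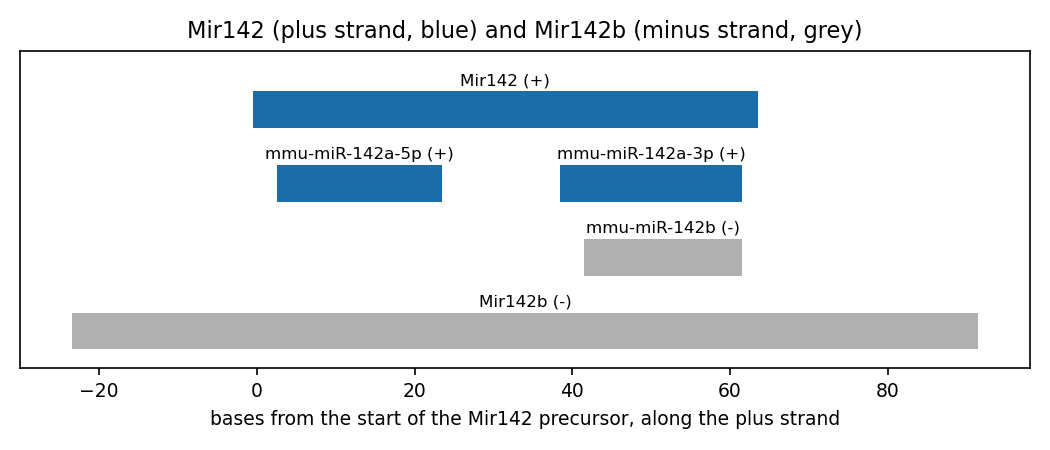
Positions of the Mir142 precursor and its mature arms (plus strand, blue) and of the Mir142b precursor and miR-142b (minus strand, grey), in bases from the start of the Mir142 precursor. The 64-base Mir142 precursor lies wholly inside the 115-base Mir142b precursor, and miR-142b lies inside miR-142a-3p.

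The other members had the reverse pattern. Mir223, Mir150, Mir155, Mir146, Mir146b and Mir342 had 0 opposite-strand reads in both libraries. Mir223 had 7496 own-strand reads in replicate 2 and 5583 in replicate 1. The floor of 3 reads equals an opposite-strand share of 0.0400% in replicate 2 and 0.0537% in replicate 1. The exact Clopper-Pearson 95% upper limits were 0.0492% and 0.0661% in replicates 2 and 1. Mir155 had 255 reads in replicate 2 and 259 in replicate 1. For it the floor equals 1.18% and 1.16% in replicates 2 and 1, and the exact upper limits were 1.44% and 1.41%. Of all 319 rows that reached 10 reads on either strand in both libraries, 10 had most of their reads on the opposite strand, which is 3.13%. All 10 overlap a microRNA gene of M21 on the other strand that has no row of its own. The Mir142b row was the 6th highest of them, below the rows over Mir497, Mir378a, Mirlet7e, Mir191 and Mir376a. The next below it were the rows over Mir299a and Mir409. M21 places an opposite-strand microRNA gene at 32 rows of the tables, and none of those genes has a row. Of the 23 such rows that reached the minimum, the other 13 did not have most reads on the opposite strand in both libraries.

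Left out of the own-strand total, the reads of the Mir142 locus were 3.86% of those assigned to no feature in replicate 2 and 3.90% in replicate 1. They were 8.90% and 8.42% of all opposite-strand reads on microRNA genes in replicates 2 and 1.

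**Figure D2:**
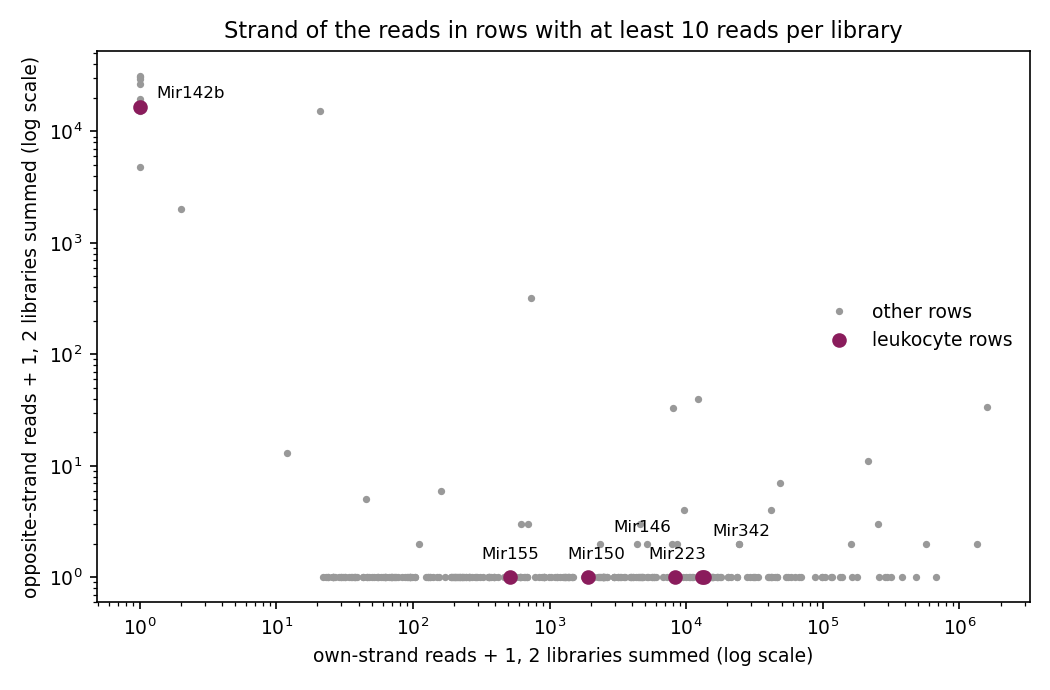
Own-strand reads (x axis) against opposite-strand reads (y axis), each plus 1 and summed over the 2 libraries on log scales, for the 319 rows that reached 10 reads in both libraries. The Mir142b row sits at the left edge with 0 own-strand reads, whereas Mir223, Mir342, Mir146, Mir150 and Mir155 lie on the floor of the y axis; Mir146b, under the minimum, is not drawn.

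At its level on that strand, the Mir142 locus was the highest member on average. It had 1779 CPM in replicate 2 and 1553 CPM in replicate 1, or 1666 ± 159 CPM (SD, n = 2). Placed among the own-strand rows it would rank 56 in replicate 2 and 61 in replicate 1. It stood above Mir223 in both pups, with a log2 ratio of 0.35 ± 0.02, which is 1.29 times as high in replicate 2 and 1.26 times in replicate 1. It exceeded Mir146 by a log2 ratio of 1.01 ± 0.06 and Mir150 by 3.10 ± 0.33. No p is given for ratios within a library, because an exact sign-flip test on 2 libraries cannot go below 0.5.

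Mir342 lies at chr12:108658620-108658718 on the plus strand, in an intron of Evl, which encodes an actin regulator. It had 1090 CPM (5917 reads) in replicate 2 and 1665 CPM (7548 reads) in replicate 1, a mean of 1378 ± 406 CPM (SD, n = 2). Its place in the order depended on the pup: it was below the Mir142 locus and Mir223 in replicate 2 and above both in replicate 1. The log2 ratio of the Mir142 locus over Mir342 was 0.71 in replicate 2 and -0.10 in replicate 1.

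Mir223, the granulocyte and myeloid microRNA, lies at chrX:96242817-96242926 on the plus strand, where an exon of the noncoding gene F630028O10Rik is annotated. It had 1381 CPM in replicate 2 and 1232 CPM in replicate 1, or 1307 ± 106 CPM (SD, n = 2). Its coefficient of variation between the pups, 8.11%, was the lowest of the members, next to 9.57% for the Mir142 locus. Mir342 ran from 1090 CPM in replicate 2 to 1665 CPM in replicate 1. That range holds Mir223 in both pups and the Mir142 locus in replicate 1, while the Mir142 locus in replicate 2, at 1779 CPM, lay above it. The place of Mir342 among these 3 is therefore not firm.

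Mir146, the row for miR-146a, lies between genes at chr11:43374397-43374461 on the minus strand. It had 912 CPM (4950 reads) in replicate 2 and 749 CPM (3393 reads) in replicate 1, or 830 ± 116 CPM (SD, n = 2). In both pups it ranked below the Mir142 locus, Mir342 and Mir223 and above the remaining members. Its paralog Mir146b, at chr19:46342762-46342870 in an intron of Mfsd13a, was far lower. It had 15 reads (2.76 CPM) in replicate 2 and 3 reads (0.662 CPM) in replicate 1. Mir146 exceeded it 330-fold in replicate 2 (exact 95% counting interval 199.9 to 590) and 1131-fold in replicate 1 (387 to 5487). Nearly all counted reads of this pair therefore fell on the miR-146a gene. A read confined to the shared stretch maps to both genes, and the tables keep such reads in a separate total for several positions.

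Mir150, the lymphocyte microRNA, lies between genes at chr7:45121757-45121821 on the plus strand. It had 176 CPM (956 reads) in replicate 2 and 213 CPM (965 reads) in replicate 1, or 195 ± 26.0 CPM (SD, n = 2). It stood below Mir223 in both pups, with Mir223 7.84 times as high in replicate 2 and 5.79 times in replicate 1. Mir342 exceeded Mir150 by a log2 ratio of 2.80 ± 0.24. Mir155 lies at chr16:84714140-84714204 on the plus strand, in an exon of its host RNA Mir155hg. It had 47.0 CPM (255 reads) in replicate 2 and 57.1 CPM (259 reads) in replicate 1, or 52.1 ± 7.17 CPM (SD, n = 2). The Mir142 locus exceeded Mir155 by 5.00 ± 0.34 on the log2 scale. The steps between Mir146, Mir150, Mir155 and Mir146b were each larger than the spread between the pups.

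**Figure D3:**
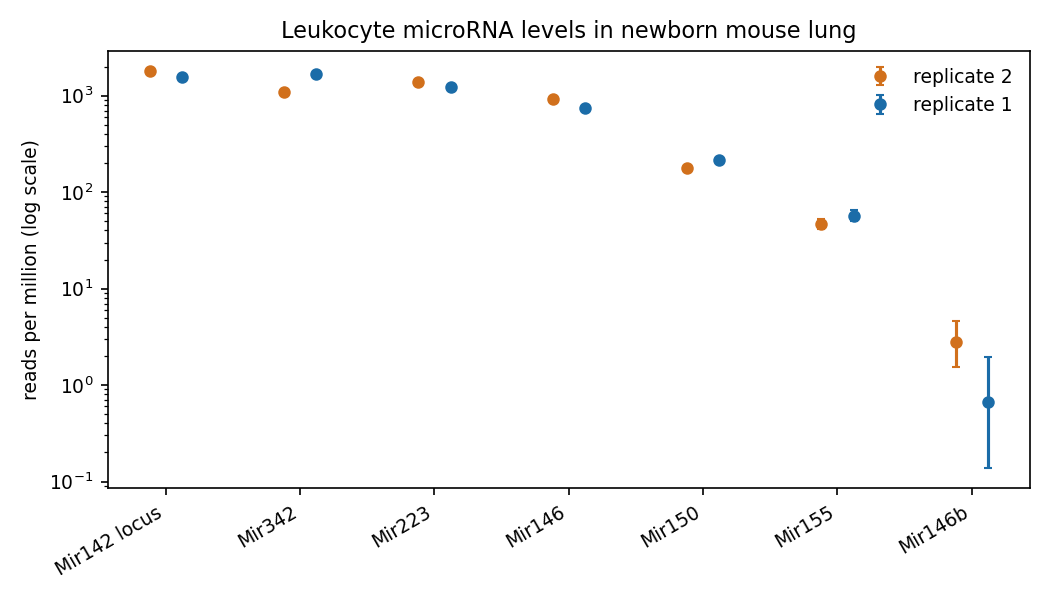
Level of each member in CPM (log scale) in replicate 2 (orange) and replicate 1 (blue), in order of the mean; bars are exact 95% counting intervals. The Mir142 locus, Mir342, Mir223 and Mir146 lie between 749 and 1779 CPM, and Mir150, Mir155 and Mir146b follow in that order in both libraries.

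Summed, the 6 own-strand members reached 3610 CPM in replicate 2 and 3916 CPM in replicate 1. With the Mir142 locus replicate 2 reached 5389 CPM and replicate 1 reached 5469 CPM, a mean of 5429 ± 56.8 CPM (SD, n = 2). The pups were closer in this total, with a coefficient of variation of 1.05%, than in each member, where it was 8.11% or more. The Mir142 locus gave 33.0% of this sum in replicate 2 and 28.4% in replicate 1. Mir342 gave 20.2% in replicate 2 and 30.4% in replicate 1, whereas Mir223 gave 25.6% in replicate 2 and 22.5% in replicate 1. Mir146 gave 16.9% in replicate 2 and 13.7% in replicate 1. Mir150 gave 3.27% in replicate 2 and 3.89% in replicate 1, and Mir155 at most 1.04%.

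The members were placed among all rows. Of the 6 own-strand members, 5 reached 10 reads in both libraries, as did 308 of the 1973 rows, or 15.6%. Mir146b, the exception, is kept in all values over the members. The median level of the 6 was 512 CPM, beside 139 CPM over those 308 rows, and 1306 rows had no own-strand read in either library. In replicate 2 the ranks ran from 69 for Mir223 and 75 for Mir342 to 195 for Mir155 and 301 for Mir146b. In replicate 1 they ran from 55 for Mir342 and 71 for Mir223 to 189 for Mir155 and 392 for Mir146b. These ranks and medians hold for own-strand rows only. Reads mapped to several places, 36.7% of all reads in replicate 2 and 34.6% in replicate 1, enter no row. Genes counted only through an opposite strand, such as Mir497 and Mir378a, have no place in this order either. A rank among all microRNAs of the lung was therefore not measured. The rows nearest to each member in mean log2 level, other members aside, were Mir101b and Mir542 for both Mir223 and Mir342. They were Mir532 and Mir708 for Mir146, Mir376c and Mir132 for Mir150, Mir30c-2 and Mir137 for Mir155, and Mir141 and Mir15b for the Mir142 locus. For Mir146b, which had few reads, Mir5619 and Gm28033 were nearest. The differences were at most 0.080 on the log2 scale; over 2 libraries this is a likeness of level only.

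**Figure D4:**
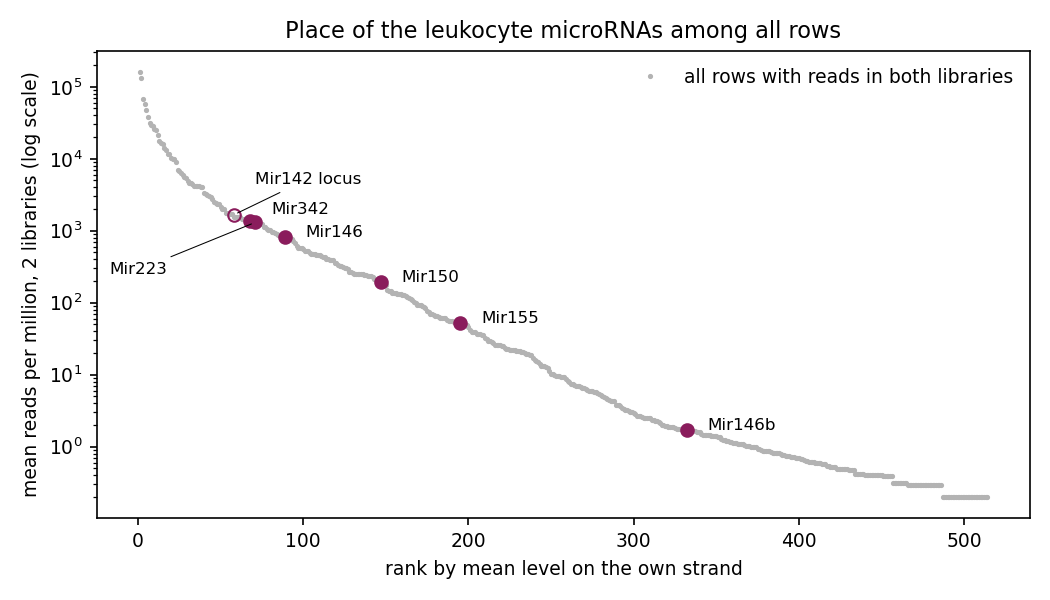
Mean level over the 2 libraries (log scale) against rank for all rows with own-strand reads in both libraries (grey), with the leukocyte members in purple; the open circle is the Mir142 locus, placed by its opposite-strand reads. The members spread over the curve, from 1666 CPM for the Mir142 locus down to 1.71 CPM for Mir146b.

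Markers of other cell types, of the lung and of other organs, spanned a wide range. The endothelial Mir126a stood at 160658 CPM in replicate 2 and 160640 CPM in replicate 1, and 6 epithelial rows summed to 32592 CPM in replicate 2, against 32744 CPM in replicate 1. Of these epithelial rows the lowest, Mir200a, had 1062 CPM in replicate 2 and 1184 CPM in replicate 1, which lies among the higher leukocyte members. The smooth muscle rows Mir143 and Mir145a together had 71609 CPM in replicate 2, against 67174 CPM in replicate 1. The liver microRNA Mir122 had 53.1 CPM in replicate 2 and 45.9 CPM in replicate 1, and 3 rows of skeletal and heart muscle summed to 445 CPM in replicate 2, against 407 CPM in replicate 1. The erythroid Mir451a had 716 CPM in replicate 2 and 1064 CPM in replicate 1, and Mir144, from the same cluster, had 415 CPM in replicate 2 and 228 CPM in replicate 1. Mir486 had 17.9 CPM in replicate 2 and 13.9 CPM in replicate 1.

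The libraries were then compared member by member. Each gene's split of reads was tested against the library totals with a two-sided exact binomial test, adjusted by Benjamini-Hochberg over the 375 genes with at least 10 reads in all. The test compares these libraries and not a condition, and the difference has no replicate check. At an adjusted p under 0.05, 5 of the 6 own-strand members were called, against 42.4% of all genes tested. Of the 5, 3 were higher in replicate 2 (19.2% of all genes) and 2 lower (23.2%). Calls follow depth: of the 233 genes that averaged 100 or more reads, 59.7% were called.

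Mir342 differed most among the well-counted members. It was lower in replicate 2, with a log2 ratio of replicate 2 over replicate 1 of -0.61 (exact 95% counting interval -0.66 to -0.56; adjusted p 6.71e-131). A smaller ratio in size was seen in 96.1% of those 233 genes. Mir150 was also lower in replicate 2, at -0.27 (-0.40 to -0.14; adjusted p 0.000134, exact binomial test).

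Mir146 was higher in replicate 2, at 0.29 (0.22 to 0.35; adjusted p 2.98e-18, exact binomial test), and Mir223 at 0.17 (0.12 to 0.22; adjusted p 4.05e-10). Mir146b was called at 2.06, but on 15 and 3 reads (0.24 to 4.49; adjusted p 0.0399, exact). Mir155 stood at -0.28 (-0.54 to -0.03) and did not pass (adjusted p 0.0621, exact).

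The Mir142 locus was tested in the same way on reads of either strand, with 385 genes tested and 42.9% called. It was higher in replicate 2, at 0.19 on the log2 scale, with an adjusted p of 6.11e-17 in the exact binomial test. By these tests Mir223, Mir146, Mir146b and the Mir142 locus were called higher in replicate 2, while Mir342 and Mir150 were called lower. The SD of the log2 ratio over the 233 better-counted genes was 0.26; Mir223 and the Mir142 locus lay within it, Mir150, Mir155 and Mir146 just past it, and Mir342 well past it. Reads of the erythroid Mir451a and Mir144 also split unequally between these libraries, with log2 ratios of -0.57 and 0.87. The erythroid Mir486 stood at 0.36 and was not called. The part of these erythroid differences in those of the leukocyte members was not tested.

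The direction of calls over all genes depends on the scaling. By library totals 45.3% of the called genes were higher in replicate 2, by the trimmed mean of M values (TMM) 62.3% and by DESeq2's size factors 58.5%. All 5 called members kept their direction and their call under both. Under TMM, Mir342 stood at -0.54, Mir150 at -0.20, Mir223 at 0.24 and Mir146 at 0.35.

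**Figure D5:**
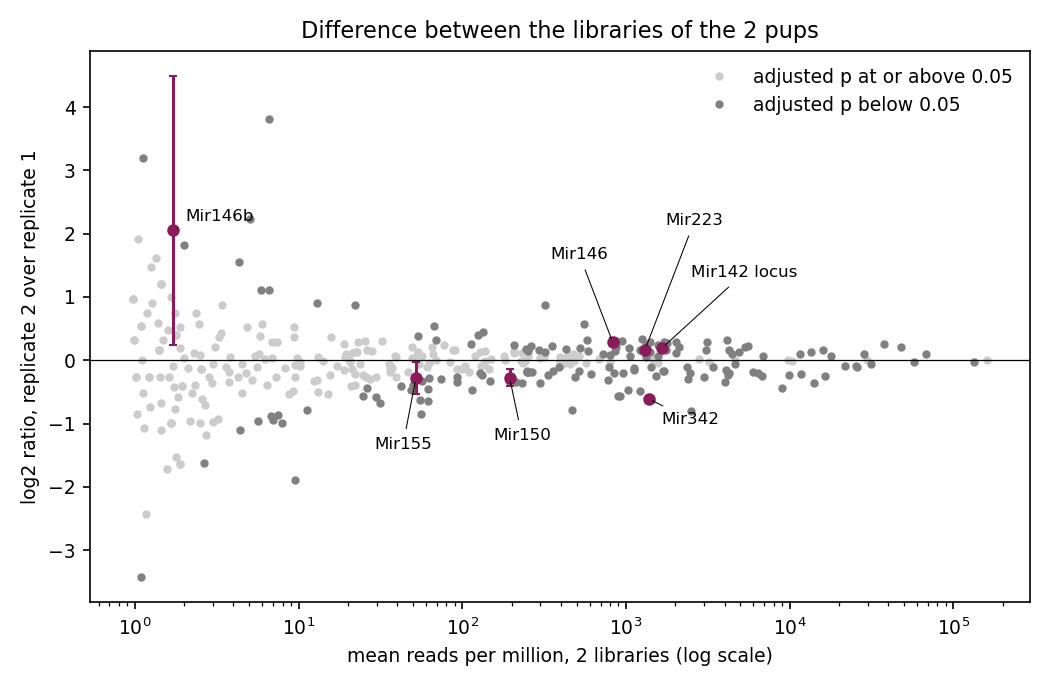
Log2 ratio of replicate 2 over replicate 1 against mean level (log scale) for the genes tested (grey, darker where the adjusted p is below 0.05), with the members in purple and exact 95% counting intervals; a gene with no reads in 1 library is not drawn. Mir342 at -0.61 lies low among genes near its level, close to Mir451a at -0.57 and above Mir423 at -0.80. Mir223, Mir146 and the Mir142 locus lie a little above 0.

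Other microRNAs known from leukocytes or inflammation were read from a list of 22, of which 21 had a row and 19 reached 10 reads in both libraries. In the test between the libraries, 9 of the 19 were called, against 42.4% of all genes tested. Of the 9, 2 were higher in replicate 2 (19.2% of all genes) and 7 lower (23.2%). The median level of the 21 was 247 CPM. The highest was Mir21a, a microRNA of inflammation and injury that many lung cells make, at 24633 CPM in replicate 2 and 26115 CPM in replicate 1. Mir652 followed at 4656 CPM in replicate 2 and 4636 CPM in replicate 1. Mir182 had 2279 CPM in replicate 2 and 2619 CPM in replicate 1, and Mir125a had 2137 CPM in replicate 2 and 2637 CPM in replicate 1. Mir139 had 1465 CPM in replicate 2 and 1430 CPM in replicate 1. Which cells the reads of these rows came from was not measured. Microbial-product-induced Mir147 of macrophages had 7.56 CPM (41 reads) in replicate 2 and 6.18 CPM (28 reads) in replicate 1. Mir511, in the macrophage mannose receptor gene Mrc1, had 7.00 CPM (38 reads) in replicate 2 and 6.84 CPM (31 reads) in replicate 1. Mir181a-1, a microRNA of developing T cells that other tissues also make, had 1545 CPM in replicate 2 and 1268 CPM in replicate 1. Mir223 had 1381 and 1232 CPM in replicates 2 and 1. A read that maps to both Mir181a-1 and its paralog Mir181a-2 is counted in neither row, so these levels may not be alike in what they count. The same limit holds for any row of the list whose reads map to several places.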

How the data were processed

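Small RNA of lung was sequenced in 2 libraries, which were treated as 1 group, with replicate numbers from the labels. Over all genes their reads differed by a chi-square of 75.2 per degree of freedom, far past sampling noise, and each entered as its own library. The authors deposited whole-number read counts per microRNA gene, not normalized, on mm10 with GENCODE M4, per the description deposited with the files; no source used here names the aligner, the counting program or the filters. Either-strand counts equal the sum of the single-strand columns. Totals leave out 4 rows without a gene. Those rows hold the reads mapped to several places, 36.7% of all reads in replicate 2 and 34.6% in replicate 1. The reads on no feature, 2.41% and 2.18% in replicates 2 and 1, are also among them. Names and positions are from GENCODE M21, which matched 1894 of 1973 identifiers, and sequences are from RefSeq, GRCm38.p6.

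CPM was computed from the deposited counts. With 1 library on each side, edgeR's quasi-likelihood test could not be fitted. An exact binomial test (scipy 1.17.1) with Benjamini-Hochberg adjustment at 0.05 took its place. It was tested on reads simulated with counting error alone. That simulation holds no spread between pups, so it cannot show how the test behaves under such a spread. Alternatives were edgeR 4.0.16 TMM, DESeq2 1.42.0 size factors, other read minimums, other denominators, reads of either strand, and leaving out each replicate. All members are named, with the 2 rows nearest in level and the 5 highest of the list of other leukocyte microRNAs. The erythroid rows and up to 8 rows read mainly on the opposite strand are also named. Mir147, Mir511, Mir181a-1 and Mir181a-2 were named after their values were seen. The members and lists were chosen with earlier results of these data known.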

Additional observations from a re-analysis of the deposited data

How the results depend on the processing

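No paired analysis was possible because the study has 1 group. Per 1000000 reads of the whole library, the summed level of the 6 own-strand members was 2015 and that of the Mir142 locus 890. Without Mir126a in the denominator they were 4483 and 1985. With either-strand reads as the denominator the Mir142 locus stood at 1634. With 1 replicate left out, the sum ran from 3610 to 3916 CPM and the Mir142 locus from 1553 to 1779 CPM. Without replicate 2, the log2 ratio of the Mir142 locus over Mir342 turned to -0.10, and without replicate 1 it was 0.71, so this order rests on 1 library. Rows read mainly on the opposite strand numbered 10 with a minimum of 100 reads, and 12 from replicate 2 alone. The called genes numbered 143 to 165 over the alternatives. Mir146b lost its call with no minimum of reads (667 genes tested, adjusted p 0.0705, exact), and its adjusted p ran from 0.0379 to 0.0705. Mir155 gained one among genes averaging 100 or more reads (233 tested, adjusted p 0.0444, exact; otherwise 0.0609 to 0.184). No other own-strand member changed its call or direction under these alternatives. The Mir142 locus kept both on either-strand reads with TMM, DESeq2 size factors, no minimum or a mean of 100 or more reads, combinations chosen after seeing the data (log2 ratio 0.19 to 0.25). With 2 libraries, counting error is known but the spread between pups is poorly measured, and Mir146b rests on few reads.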

Other observations

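Several other microRNAs were counted only through a row of the opposite strand, as the Mir142 locus was. Their opposite-strand levels were 3155 ± 160 CPM for Mir497, of the miR-15/16 seed family, 3040 ± 329 CPM for Mir378a, 2952 ± 210 CPM for Mirlet7e and 2660 ± 12.8 CPM for Mir191 (SD, n = 2). Mir376a stood at 1934 ± 111 CPM, Mir299a at 1539 ± 3.83 CPM and Mir409 at 1535 ± 73.7 CPM. Together with the Mir142 locus and 2 lower rows, these rows held 99.7% of the opposite-strand reads on microRNA genes in each library. A list total taken from the own-strand column alone omits them.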
